A study of Homo sapiens with 5 samples.

Results

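Telomerase and the shelterin complex are described here through 10 genes, all of which were found among the 26485 genes of the count files. They are TERT, the catalytic subunit of telomerase, its H/ACA protein partners DKC1, NOP10, NHP2 and GAR1, and the shelterin genes TERF1, TERF2, POT1, TINF2 and ACD. The genes were chosen by function and selected on the read counts of knockdown and control libraries, since the large difference of TERT was already known. Their differences between these groups are therefore descriptions and not tests. The cells were SW480, an established human colorectal cancer line, and all of them carried dCas9-KRAB, a repressor that a guide RNA directs to a gene. The AKAP12 knockdown group (3 libraries) was transduced with sgAKAP12 and the control group (2 libraries) with sgControls, and RNA was taken 48 hours after seeding in both. The sample titles and a label field named shRNA call the groups shAKAP12 and shControl, while the treatment protocol names guide RNAs. The number of clones is not stated, and the labels do not say whether libraries came from separate cultures. The p-values therefore measure the spread between these libraries, which may be technical.

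Telomerase adds telomeric repeats to chromosome ends by copying a template within its RNA subunit, TERC. Dyskerin (DKC1), NOP10, NHP2 and GAR1 bind the H/ACA part of that RNA, as they do on many other H/ACA RNAs, so they are used in nearly every cell. TERT is silent in most adult tissues and active in most cancers. Shelterin coats telomeres: TERF1 and TERF2 encode the proteins TRF1 and TRF2, which bind double-stranded repeats, POT1 binds the single-stranded end, TINF2 encodes the bridge TIN2, and ACD encodes TPP1, which ties POT1 to TIN2 and recruits telomerase.

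The libraries were 3' end RNA libraries with total counts from 6890868 to 9311026 in the knockdown and of 4935096 and 8670141 in the controls. AKAP12, the targeted gene, stood at 1159, 1063 and 1008 CPM in the knockdown libraries, against 2870 and 1550 CPM in the controls. CPM is a count scaled to library size, here with TMM factors. AKAP12 had a fitted log2 fold change of -1.04 with an SE of 0.31, short of the threshold (edgeR adjusted p = 0.0513), of -0.52 when control 1 was left out and of -1.42 when control 2 was. Of 18 colorectal epithelial markers, 14 had reads in every library, among them EPCAM, KRT18, KRT19 and CDX2. CDX1 was at 0 in all of them, KRT20, LGR5 and GPA33 had at most 4 reads in a library, and the epithelial cadherin gene CDH1 had 12 to 31. Their summed level was 1814 to 2040 CPM in the knockdown libraries and 1804 and 2223 CPM in the controls.

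TERT lies on chromosome 5 from 1253172 to 1295047 (hg38, minus strand), and none of its exons overlapped an exon of another gene in the files. It held 4198, 17172 and 12480 reads in the knockdown libraries, against 366479 and 306715 reads in the controls. These were 429.8, 2299.9 and 1534 CPM in the knockdown libraries, against 89771 and 35177 CPM in the controls. In such bulk samples, fewer cells that express a gene and less of its RNA per cell cannot be told apart. A count per gene also does not show whether the reads came from the native TERT transcript or from another source of the same sequence, which was not tested and bears on every TERT level, fold change and ratio given here. Every knockdown library was below both controls, and TERT was the gene with the most reads in each control, while its place among all genes was 329, 20 and 48 in knockdown 1, 2 and 3. It took 0.0451%, 0.249% and 0.161% of all counts in the knockdown libraries and 7.43% and 3.54% in the controls. The fitted log2 fold change was -5.46 (SE 0.81), a level 44.0-fold lower in the knockdown. It was -4.63 without control 1 and -5.98 without control 2. By size of fall TERT was in place 3 of the 14536 genes tested. In the authors' deposited table its log2 fold change was -5.49; that table does not state its direction, and its sign matched the edgeR fit in 99.2% of the tested genes.

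TERT also varied within the groups. Knockdown 2 was 5.35-fold above knockdown 1, and the coefficient of variation over the knockdown libraries was 66.1%. For the other 9 members that coefficient was 2.16% to 15.9%, and the median over all tested genes was 12.6%. Of the 7633 tested genes whose mean log2 CPM reached 4, TERT had the largest ratio between its highest and lowest knockdown library. Control 1 was 2.55-fold above control 2.

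The promoters of TERT, DKC1 and NOP10 are shown because these 3 members stood past the edgeR threshold, TERT and DKC1 lower and NOP10 higher in the knockdown. The sequences are from RefSeq (GRCh38.p14), 250 bases before to 50 after the gene start, 5′ to 3′ on the strand of the gene. Capitals mark GC boxes (GGGCGG, or CCGCCC for the other strand), E-boxes (CACGTG) and CCAAT boxes (CCAAT, or ATTGG for the other strand). TERT is at chr5:1295019-1295318 (minus), DKC1 at chrX:154762614-154762913 (plus) and NOP10 at chr15:34343087-34343386 (minus).
TERT: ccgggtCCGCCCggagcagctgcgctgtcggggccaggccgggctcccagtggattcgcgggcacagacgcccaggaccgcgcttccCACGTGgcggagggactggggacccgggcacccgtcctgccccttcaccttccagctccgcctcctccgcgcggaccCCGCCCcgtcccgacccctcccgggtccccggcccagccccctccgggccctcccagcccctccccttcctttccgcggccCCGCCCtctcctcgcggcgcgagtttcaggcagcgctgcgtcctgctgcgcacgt
DKC1: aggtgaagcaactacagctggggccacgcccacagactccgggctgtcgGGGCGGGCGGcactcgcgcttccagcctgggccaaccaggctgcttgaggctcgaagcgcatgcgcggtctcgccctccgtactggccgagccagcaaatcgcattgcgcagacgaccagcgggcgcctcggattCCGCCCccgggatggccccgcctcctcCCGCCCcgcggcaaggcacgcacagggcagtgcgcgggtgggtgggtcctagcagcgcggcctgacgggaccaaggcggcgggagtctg
NOP10: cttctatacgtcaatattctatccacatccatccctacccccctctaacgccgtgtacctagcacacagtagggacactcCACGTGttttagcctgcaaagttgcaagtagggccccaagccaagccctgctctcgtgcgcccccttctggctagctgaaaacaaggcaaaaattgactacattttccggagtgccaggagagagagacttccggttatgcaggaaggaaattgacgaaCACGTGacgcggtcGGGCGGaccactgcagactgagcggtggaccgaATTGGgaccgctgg

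The TERT window held 3 GC boxes and 1 E-box, the DKC1 window 4 GC boxes, of which 2 overlap, and the NOP10 window 1 GC box, 2 E-boxes and 1 CCAAT box. Searched on both strands of all 27305 promoter windows, the GC box was present in 44.6%, the E-box in 7.43% and the CCAAT box in 35.7%. Windows were found for 8 of the 10 members, not for TERF1 and TERF2. All 8 held a GC box, the E-box was found in TERT and NOP10, and the TATA box (TATAAA) in none, against 12% of all windows. The TERT window was 77.3% G and C, that of NOP10 54.7%. These matches describe letters in the window and are not evidence of binding.

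The H/ACA partners did not share 1 direction: DKC1 and NHP2 had negative log2 fold changes, as TERT did, and NOP10 and GAR1 positive ones. DKC1, the pseudouridine synthase of the complex (chromosome X, 154762742 to 154777689), had 981, 938 and 801 CPM in the knockdown libraries, against 3090 and 1745 CPM in the controls. All knockdown libraries were below both controls, and the log2 fold change was -1.41 (SE 0.30), -0.94 without control 1 and -1.77 without control 2. DKC1 exons hold the small RNA genes SNORA36A, SNORA56 and MIR664B, each with at most 13 reads in any library.

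NOP10, the smallest protein of the complex (chromosome 15, 34341716 to 34343161), had the opposite sign. It had 104.0, 106.2 and 78.7 CPM in the knockdown libraries, against 2.69 and 15.1 CPM in the controls. All knockdown libraries were above both controls. The control values rest on 11 and 132 reads, with exact 95% Poisson intervals of 5.49 to 19.7 and 110.4 to 156.5 reads that cover counting error only. The log2 fold change was 3.35 (SE 0.62), a level 10.2-fold higher in the knockdown, and it was 2.67 without control 1 and 5.15 without control 2.

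GAR1, which joins the complex late and is needed for its catalysis of pseudouridylation (chromosome 4, 109815510 to 109824737), had 130.5, 133.1 and 127.5 CPM in the knockdown libraries, against 20.6 and 76.0 CPM in the controls. The groups did not overlap, and control 2 was 3.70-fold above control 1. The log2 fold change was 1.42 (SE 0.50), short of the threshold, 0.78 without control 1 and 2.66 without control 2. NHP2, the RNA-binding partner of NOP10 (chromosome 5, 178149465 to 178153960), had 103.0, 97.4 and 120.2 CPM in the knockdown libraries, against 169.8 and 116.4 CPM in the controls. Here the groups overlapped, since knockdown 3 was above control 2, and the log2 fold change was -0.42 (SE 0.23), -0.12 without control 1 and -0.67 without control 2.

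**Figure D1:**
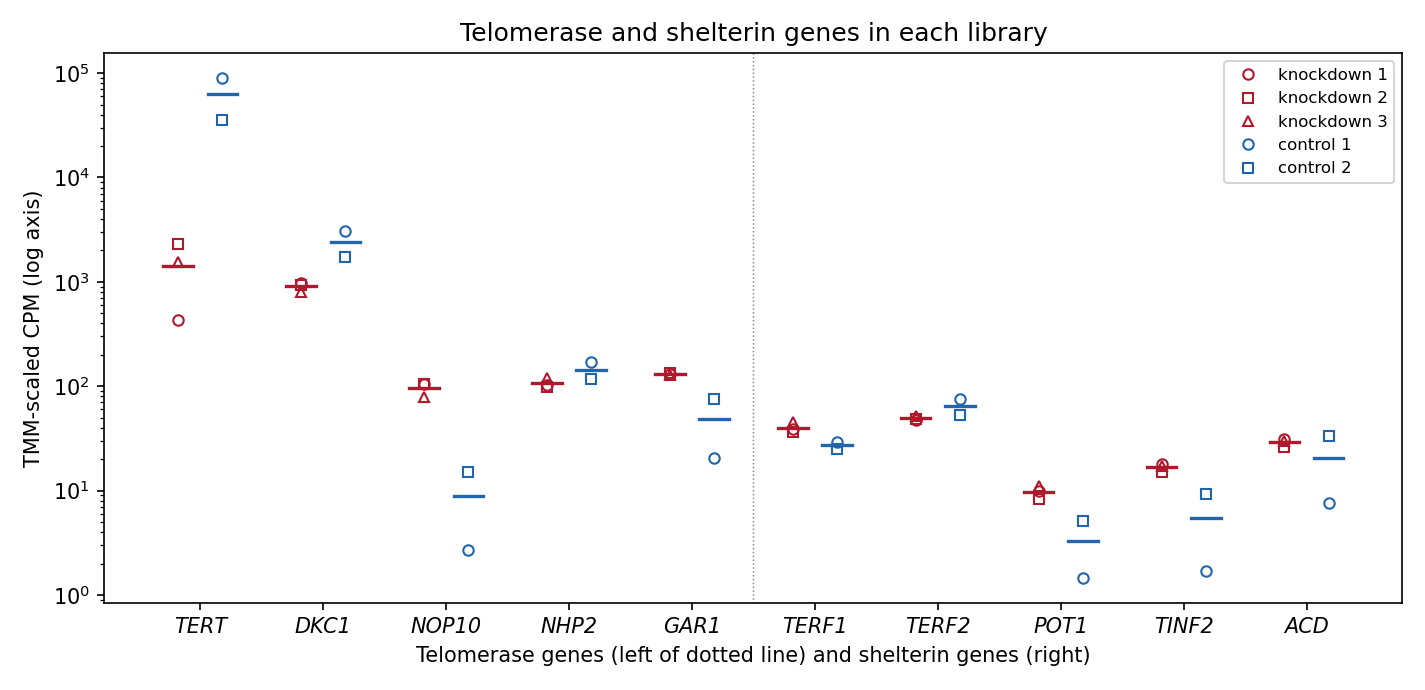
TMM-scaled CPM (log axis) of the 10 genes in each library, knockdown (red, 3 libraries) left of control (blue, 2 libraries); horizontal lines are group means. TERT is far lower in every knockdown library than in either control, NOP10 is higher in every knockdown library, and control 1 lies below control 2 for NOP10, GAR1, POT1, TINF2 and ACD.

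A ratio of reads within a library needs no scaling factor. TERT reads over the summed reads of its 4 partners were 0.326, 1.80 and 1.36 in the knockdown libraries, against 27.3 and 18.0 in the controls. The groups did not overlap, and the mean log2 ratio was -0.11 ± 1.32 in the knockdown (SD, n = 3) and 4.47 in the controls, a difference of -4.58. Single partners gave differences of -4.25 for TERT over DKC1, -5.21 over NHP2, -7.33 over GAR1 and -9.51 over NOP10. The controls were far apart for NOP10 and GAR1. TERT reads per NOP10 read were 33316 in control 1, on 11 NOP10 reads, and 2324 in control 2, against 4.13 to 21.7 in the knockdown. Per GAR1 read they were 4363 in control 1 and 463 in control 2, against 3.29 to 17.3 in the knockdown. The sizes of the NOP10 and GAR1 differences therefore depend on the control. The partners' own proportions also differed. NOP10 had 0.106, 0.113 and 0.0982 reads per DKC1 read in the knockdown libraries, against 0.000872 and 0.00868 in the controls. GAR1 had 0.133, 0.142 and 0.159 reads per DKC1 read in the knockdown libraries, against 0.00666 and 0.0436 in the controls. NHP2 per DKC1 was 0.105, 0.104 and 0.150 in the knockdown libraries, against 0.0549 and 0.0667 in the controls. In each of these ratios both controls lay below every knockdown library; NHP2 per DKC1 was higher in knockdown 3 than in the other knockdown libraries. Taking TERT out of the table before scaling moved the log2 fold change of no other member by more than 0.0036. TMM trims genes with extreme ratios, so this small shift cannot show whether library composition matters. By library size only the log2 fold change was -0.19 for NHP2, against -0.42, and -0.15 for TERF2, against -0.38.

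**Figure D2:**
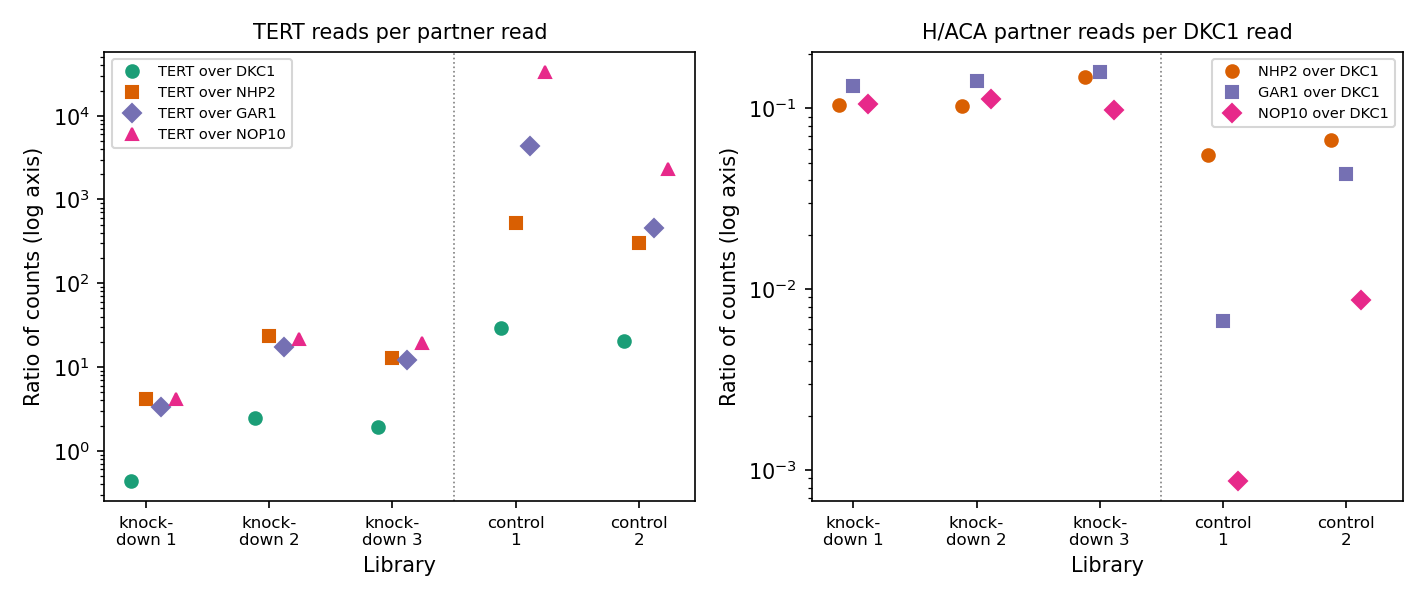
Ratio of counts (log axis) in each library, for TERT over each partner (left) and for NHP2, GAR1 and NOP10 over DKC1 (right); each point is 1 library, shifted sideways within it for legibility, with the 3 knockdown libraries left of the dotted line and the 2 controls right of it. TERT over DKC1 is 0.438 to 2.45 in the knockdown and 29.05 and 20.16 in the controls, and every ratio to DKC1 on the right is higher in the knockdown.

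In CPM per kilobase of exon, each shelterin gene was below each partner in the knockdown libraries, which did not hold in the controls, where the mean of NOP10 was below that of TERF2. By the edgeR threshold 0 of the 5 were called, beside 22.6% of all tested genes. At an unadjusted p under 0.05 the count was 3, all higher, beside 40.5% of tested genes, 19.8% higher. By DESeq2 it was 2 (POT1 and TINF2), beside 31.9%, and by limma-voom 0, beside 21.1%. TERF1 (chromosome 8, 73008862 to 73047752) had 38.6, 36.7 and 45.0 CPM in the knockdown libraries, against 29.4 and 25.1 CPM in the controls. The groups did not overlap; its log2 fold change was 0.56 (SE 0.22), and this was the member with the most similar controls. By library size only its edgeR adjusted p was 0.0461, against 0.101 with TMM factors. TERF2 (chromosome 16, 69355561 to 69385988) had 47.7, 48.5 and 52.4 CPM in the knockdown libraries, against 76.2 and 53.1 CPM in the controls. Knockdown 3 was just below control 2, and the log2 fold change was -0.38 (SE 0.22), -0.10 without control 1 and -0.63 without control 2. TERF1 reads per TERF2 read were 0.809, 0.757 and 0.859 in the knockdown libraries, against 0.386 and 0.473 in the controls, with no overlap.

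POT1, the single-strand binder (chromosome 7, 124822386 to 124929983), had 97, 62 and 90 reads in the knockdown libraries, against 6 and 45 reads in the controls. Those were 9.93, 8.30 and 11.1 CPM in the knockdown libraries, against 1.47 and 5.16 CPM in the controls. The groups did not overlap, and the log2 fold change of 1.45 (SE 0.49) was 0.92 without control 1 and 2.72 without control 2. The antisense gene POT1-AS1 shares 111 exon bases with POT1 and had at most 8 reads in a library; strand was not used in the counting.

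TINF2 (chromosome 14, 24239645 to 24242674) had 177, 112 and 140 reads in the knockdown libraries, against 7 and 81 reads in the controls. In CPM this was 18.1, 15.0 and 17.2 in the knockdown libraries, against 1.71 and 9.29 in the controls. Both controls were below the knockdown libraries, with control 1 lowest, and the log2 fold change of 1.51 (SE 0.56) was 0.86 without control 1 and 3.28 without control 2. The exact 95% Poisson interval of the 7 reads in control 1 was 2.81 to 14.4, and that of the 6 POT1 reads there was 2.20 to 13.1.

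ACD (chromosome 16, 67657512 to 67660815) had 30.9, 26.3 and 29.8 CPM in the knockdown libraries, against 7.59 and 33.7 CPM in the controls. Control 2 was above every knockdown library and control 1 below them, so the sign of the log2 fold change (0.45, SE 0.53) depended on the control: it was -0.22 without control 1 and 1.93 without control 2. ACD shares 58 exon bases with RLTPR on the opposite strand, which had 93 to 125 reads in the knockdown libraries and 60 and 175 in the controls, and reads over those bases counted for both genes.

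**Figure D3:**
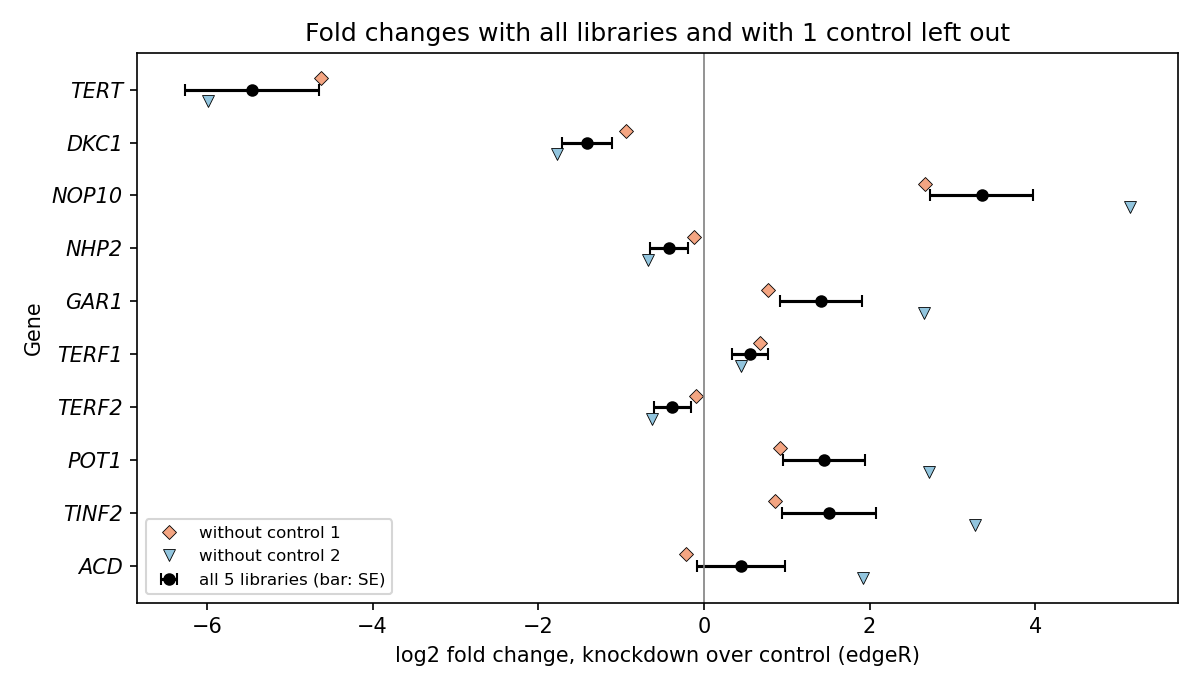
Log2 fold change, knockdown over control, of the 10 genes (black points, bars are SE), and the same value with control 1 (orange diamonds) or control 2 (blue triangles) left out. TERT stays between -4.63 and -5.98, NOP10 between 2.67 and 5.15, and ACD lies on either side of 0.

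Read against all genes, 3 of the 10 members passed the edgeR threshold (TERT and DKC1 lower, NOP10 higher), beside 22.6% of the tested genes, 11.2% higher and 11.4% lower; since this comparison chose the members, nothing is read from their count. By DESeq2 it was 6 members, beside 31.9% of the genes with an adjusted p there, with GAR1, POT1 and TINF2 added. With any 1 knockdown library left out, edgeR called 0 members (3 to 4 at an unadjusted p under 0.05). With 1 control left out, the spread is taken from the knockdown libraries alone, so the calls of those fits are not set beside these shares. The groups did not overlap for 8 members, 5 with the knockdown above and 3 below, beside 60.1% of the tested genes, 31.6% above and 28.5% below. All 10 passed the filter on low counts. The median log2 fold change of the 10 was 0.51, beside 0.04 for all tested genes. For 7 members the groups did not overlap and control 2 lay between control 1 and the knockdown libraries, beside 47.3% of the tested genes. NOP10, TINF2, ACD, GAR1 and POT1 were 3.51 to 5.62-fold higher in control 2 than in control 1, whereas TERT, DKC1, NHP2, TERF2 and TERF1 were 1.17 to 2.55-fold higher in control 1.

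Levels of different genes were compared per kilobase of counted exon, although reads of 3' end libraries need not grow with transcript length. In the knockdown libraries TERT averaged 354 CPM per kb (107.1 to 573), with a range that overlapped DKC1 at 200.5, and DKC1 overlapped NOP10 at 180.0. NHP2 at 125.3 and GAR1 at 102.9 followed, then TERF2 at 16.6, ACD at 14.0, TERF1 at 13.5, TINF2 at 7.71 and POT1 at 2.27, where ACD and TERF1 overlapped and the other neighbours did not. In the controls TERT averaged 15568 CPM per kb (8766 and 22370), DKC1 534 and NHP2 167.7, with no overlap among these 3. NOP10 was in place 3 in the knockdown and in place 6 in the controls. These places depend on the division by length. By mean CPM alone NOP10, at 96.3, was below NHP2 (106.9) and GAR1 (130.4) in the knockdown. In the controls, at 8.92, it was also below ACD (20.7) and TERF1 (27.3). GAR1, TERF2, NOP10, ACD and TERF1 overlapped their neighbours in the control order per kb. POT1 had the lowest mean in both groups, but in the controls its range overlapped that of TINF2.

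With tested genes split into 5 equal bins by the G and C share of their longest GENCODE transcript, TERT (65.7%) was in the most GC-rich bin, where 171 genes were higher and 594 lower in the knockdown and the median log2 fold change was -0.29. POT1 (37.6%) was in the bin with the least, where 426 were higher and 100 lower and the median was 0.26. ACD (61.8%) shared the most GC-rich bin with TERT but had a log2 fold change of 0.45. TINF2 (54.2%) at 1.51 and NHP2 (57.1%) at -0.42 were in the next bin, where the median was -0.12. TERF1 (45.2%) at 0.56 was in the bin next to that of POT1, where the median was 0.15. NOP10, DKC1, GAR1 and TERF2 all were in the middle bin, at 47.1% to 50.9%, with log2 fold changes from -1.41 to 3.35. The part of GC content in these differences was not tested.

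Genes near TERT were taken from those that the files place on chromosome 5 alone. A gene that they also place on an alternate sequence is missing here, so these counts may not cover every neighbour. Of the 11 such genes with a start within 500 kb of the TERT start, 3 passed the filter on low counts. The 5 within 250 kb (SLC6A18 and SLC6A19, which encode amino acid transporters, MIR4457, MIR6075 and CTD-3080P12.3) had at most 4 reads in a library and none passed. BRD9, a subunit of a SWI/SNF chromatin remodelling complex, starts 402 kb from TERT and fell by 1.37 on the log2 scale (SE 0.25; adjusted p = 0.0201 by edgeR). TRIP13, which starts beside it, had a log2 fold change of -0.02, but 0.85 without control 1 and -0.58 without control 2. LOC728613 was at 0.56 (SE 0.56), and ZDHHC11, SDHAP3 and MIR4277 had at most 5 reads in a library. Past the edgeR threshold were 1 of the 3 tested genes within 500 kb and 4 of 12 within 1000 kb, beside 22.6% of all tested genes.

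No gene followed TERT closely over the 5 libraries. By the root mean square difference between centred log2 CPM profiles, the closest of the genes above the same level was the small nucleolar RNA SNORD89 at 1.46 log2 units. GSTZ1, SNORD57, IL4I1, SNAR-E, HIST1H2AJ, HIST1H4H and SNAR-H came next, at 1.48 to 1.61. DKC1 had much nearer matches, VPS41 at 0.03, C19orf25 at 0.03 and TIMM13 at 0.04, and so had TERF1, with BLOC1S6 at 0.02, TGS1 at 0.02 and NAPEPLD at 0.04. SNORD89 had 27.5, 39.6 and 22.6 CPM in the knockdown libraries, against 742 and 103.0 CPM in the controls. Its controls differed far more than those of TERT. IL4I1, at 1.53, had 87.0 and 37.4 CPM in the controls, with knockdown libraries of 7.06, 7.23 and 7.50 CPM and a log2 fold change of -3.09. These likenesses rest on 5 libraries and are descriptions.

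Other telomere genes were taken from lists of textbook members. Of all tested genes 11.2% were higher and 11.4% lower, the shares beside which the counts of each list stand. Of 18 tested genes of telomerase RNA processing and assembly, 1 rose and 2 fell. NAF1, the assembly factor that GAR1 replaces, rose to 11.8, 11.3 and 12.7 CPM in the knockdown libraries, against 3.92 and 3.33 CPM in the controls (log2 fold change 1.73, SE 0.30, edgeR adjusted p = 0.0181). TERC, the telomerase RNA, which for the most part carries no poly(A) tail, fell to 73.2, 77.5 and 62.2 CPM in the knockdown libraries, against 165.8 and 141.0 CPM in the controls (log2 fold change -1.11, SE 0.20, edgeR adjusted p = 0.0194). RUVBL1, an ATPase of the assembly machinery, fell by 1.35 on the log2 scale (adjusted p = 0.0298 by edgeR), or by 0.71 if control 1 is left out. WRAP53, which brings telomerase to Cajal bodies, was at -0.70 (edgeR adjusted p = 0.113). The list's median was 0.04, as it was over all tested genes.

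Of 9 genes listed as chaperones and cochaperones of TERT, not all of which need act in its folding, 0 rose and 4 fell. Of all tested genes 11.2% were higher and 11.4% lower. At an unadjusted p under 0.05 also 0 rose, beside 19.8% of tested genes, and 0 rose by DESeq2 or limma-voom. The list had a median log2 fold change of -0.78. Of the genes not called, HSP90AA1 was at 0.21, PTGES3 at 0.06, HSPA4 at -0.10, HSPA8 at -0.33 (0.56 without control 1) and FKBP4 at -0.80. STIP1, the HSP70 to HSP90 adaptor, fell to 302.5, 255.4 and 217.7 CPM in the knockdown libraries, against 1086 and 698 CPM in the controls (log2 fold change -1.79, SE 0.27, edgeR adjusted p = 0.0158). The ubiquitin ligase gene STUB1 fell by 2.52 (-1.09 without control 1), HSP90AB1 by 1.00 and DNAJB1 by 0.78 on the log2 scale. By library size only the list had 2 calls, since HSP90AB1 (edgeR adjusted p = 0.0533) and DNAJB1 (0.114) missed the threshold, and DNAJB1 missed it without a filter too (0.051).

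Of 34 genes of telomere end processing and repair, 4 rose and 5 fell, with a median of 0.13. The primase gene PRIM1 rose by 1.64 on the log2 scale, to 75.9 ± 5.21 CPM in the knockdown (SD, n = 3), against 25.7 and 23.1 CPM in the controls (edgeR adjusted p = 0.0131), and the flap endonuclease gene FEN1 rose by 2.41 (1.85 without control 1, 3.39 without control 2). POLA1, the catalytic subunit of the polymerase that works with this primase, fell by 1.16, and TEN1, of the CST complex that fills in the C-strand, fell by 2.14 (-1.46 without control 1). TERF2IP, which encodes RAP1, the shelterin protein that binds TRF2, was at 0.23 (SE 0.18, edgeR adjusted p = 0.395), with 160.4, 141.6 and 156.8 CPM in the knockdown libraries, against 136.0 and 125.7 CPM in the controls.

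In the telomeric chromatin list 2 of 19 rose and 1 fell, with a median of 0.19. The histone H3.3 genes H3F3A and H3F3B rose by 2.82 and 0.81 on the log2 scale, and SUV39H1, a histone H3 methyltransferase, fell by 1.10 (-0.60 without control 1). H3F3A was read at 4.45 ± 1.05 CPM in the knockdown (SD, n = 3), against 0.490 and 0.688 CPM in the controls, and has near-identical copies elsewhere in the genome, so its count is uncertain. For SUV39H1 the adjusted p was 0.0625 with limma-voom and 0.0714 with edgeR on library size only, both past 0.05. Of 34 genes for factors reported at the TERT promoter, 3 rose and 6 fell, with a median of -0.25. CTNNB1 (β-catenin) rose by 2.16 (1.54 without control 1, 3.32 without control 2), MAX, the MYC partner, by 1.58 (2.42 without control 2) and the ETS partner gene GABPB1 by 1.36, while TCF7L2 fell by 1.03 (-0.67 without control 1). The other falling genes were MZF1 at -1.25, SP1 at -1.08, E2F1 at -0.83, CTCF at -0.64 and ETS2 at -0.63. By library size only each of these missed the threshold, and this list had 4 higher and 1 lower. Over the 5 lists together 28 of 114 genes passed, 10 higher and 18 lower, a share of 24.6% beside the 22.6% of all tested genes, and by library size only it was 14 higher and 9 lower.

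**Figure D4:**
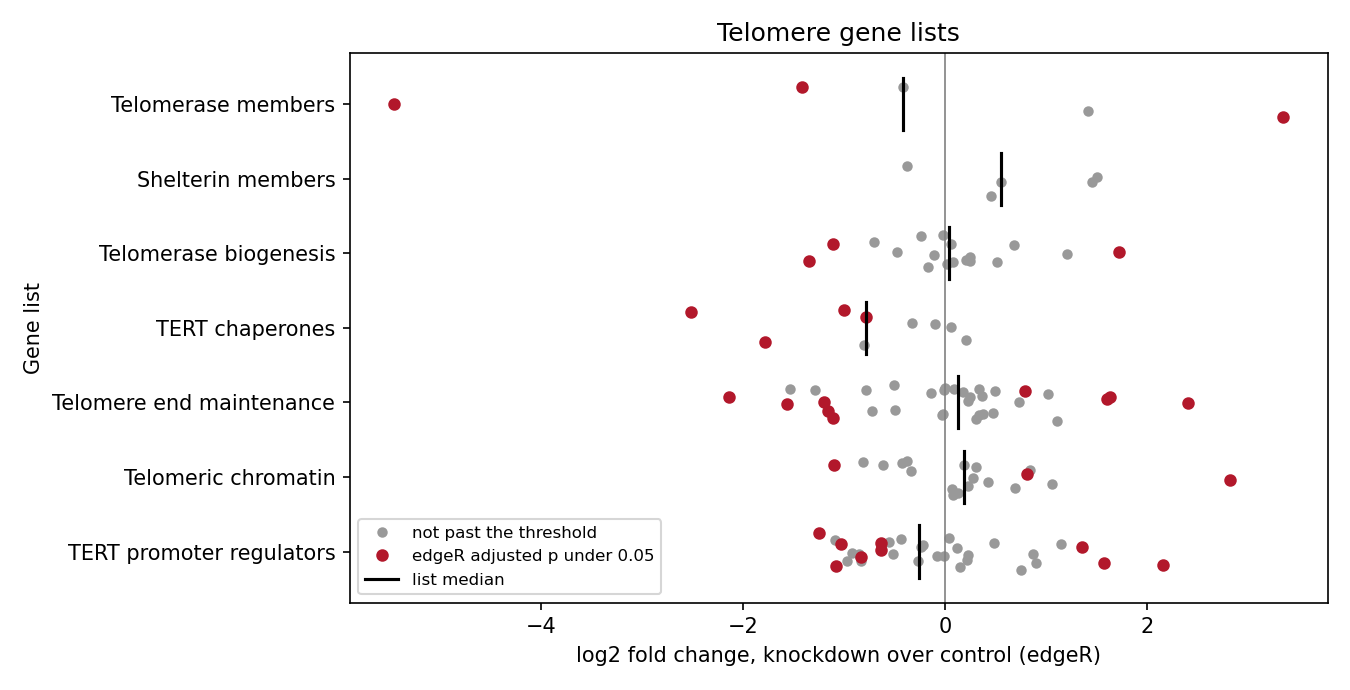
Log2 fold change, knockdown over control, of each tested gene (points) in the telomerase and shelterin members and 5 lists of other telomere genes; red points have an edgeR adjusted p under 0.05 and black lines are list medians. TERT at -5.46 and NOP10 at 3.35 lie outside the range of the other points, and the list medians lie between -0.78 and 0.56.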

How the data were processed

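The deposited values are whole-number counts of reads over the exons of each gene, made by the authors with featureCounts 1.6.2 per the file headers; a read over several genes counted for each, and strand was not used. STAR 2.7, hg38 and DESeq2 1.22 are named in the submitters' processing notes, with no role stated for each. The authors' deposited table gives a log2 fold change per gene.

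After filterByExpr at a minimum count of 10, 14536 genes remained. They were scaled with TMM factors and tested by quasi-likelihood in edgeR 4.0.16 under R 4.3.3 (two-sided, no covariate), with Benjamini-Hochberg adjustment over all tested genes and a threshold of 0.05. An SE is the size of a log2 fold change over the square root of its F statistic. The smallest p of an exact permutation test on 1 gene would be 0.1 in this design. Alternatives were DESeq2 1.42.0, limma-voom (limma 3.58.1), library size only, RLE scaling, a filter of 5 CPM in 2 or more libraries, none at all, the table without TERT, the replicate number as a block, and each library left out.

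The members and lists were chosen with earlier results of these data known. Named genes were the members, the genes within 500 kb of TERT placed on chromosome 5 alone, and up to 4 called genes per list with the smallest p. Added to these were TERF2IP, TERC and WRAP53, and the 8 (TERT) or 3 (DKC1, TERF1) nearest profiles. The other chaperones, and the other called genes of the promoter list that fell, were also named. Log2 CPM used a prior count of 2. GC content was available for 94.4% of tested genes. The procedure was tested on simulated counts.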

Additional observations from a re-analysis of the deposited data

How the results depend on the processing

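The TERT log2 fold change ran from -5.82 to -5.18 over the alternatives with all libraries and from -5.99 to -4.63 with 1 library left out. Of 129 member values under alternatives, 11 moved by more than the spread between libraries and 0 of the called ones changed sign; ACD, not called, was at -0.22 without control 1. The difference, knockdown minus control, in the log2 ratio of TERT to its partners was -5.32 per kb. Without division by length the difference was -4.58 with all libraries, and it ran from -5.06 to -3.82 with 1 library left out. For the log2 ratio of TERT to the 5 shelterin genes the difference was -5.87. With 1 library left out the calls ran from 0 to 8811 over all genes, from 0 to 9 members and from 0 to 73 list genes: they were 0 without any 1 knockdown library (3774 to 4109 genes at an unadjusted p under 0.05) and more without a control (5658 genes, 7 members and 52 list genes without control 1, and 8811, 9 and 73 without control 2), when the lone control is assumed to vary like the knockdown libraries. DESeq2 called 6 members. Library size only shifted the median log2 fold change of all genes by 0.20 and called 1668 higher and 982 lower, against 1624 and 1658. Of the 28 list genes called, 10 lost the call in at least 1 of 7 settings. Among genes placed on chromosome 5 alone, a window of 250 kb around TERT held 0 tested and so 0 called genes. One of 1000 kb held 4 called of 12 tested, beside 22.6% of all tested genes.

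The labels number the libraries but do not say that equal numbers were paired, and the deviations of same-numbered libraries correlated at -0.05 and -0.08 across genes. With the replicate number as a block 210 genes were called, 1 member (NOP10) and 1 list gene, and the TERT adjusted p was 0.0548; the cause was not tested. Depth limits POT1, TINF2 and NOP10, which had 6, 7 and 11 reads in control 1.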

Other observations

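Of 16 genes that mark stromal cells 15 had reads in every library of this epithelial cell line, and of 18 that mark blood cells 17 had. The 16 stromal markers summed to 714, 807 and 694 CPM in the knockdown libraries and to 920 and 848 CPM in the controls, with 220 to 804 reads of COL3A1 in each library. The 18 blood markers summed to 181, 192 and 167 CPM in the knockdown libraries and to 167 and 215 CPM in the controls, with 118 to 405 reads of PTPRC. Over all tested genes edgeR called 11.2% higher and 11.4% lower, and 40.5% had an unadjusted p under 0.05, with 19.8% higher. DESeq2 called 31.9% and limma-voom 21.1%. Beside these shares, of the stromal markers 0 of 14 tested rose and 2 fell by edgeR (0 and 3 at an unadjusted p under 0.05). Of the blood markers 0 of 17 rose and 3 fell (0 and 3). By DESeq2 or limma-voom 0 of either list rose. The 13 retinal and kidney markers summed to 90.2, 96.8 and 101 CPM in the knockdown libraries and to 66.6 and 104 CPM in the controls. Of these 1 of 6 tested rose and 0 fell (2 and 0 at an unadjusted p under 0.05; 1 and 0 by DESeq2 and by limma-voom), and of the colorectal epithelial markers 1 of 14 rose and 2 fell. Median log2 fold changes were 0.42 for the tested stromal markers, 0.04 for blood, 0.64 for retinal and kidney and 0.04 for colorectal epithelial markers. Over all tested genes the median was 0.04. The part of these markers in the TERT values was not tested.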
